A study of Mus musculus with 48 samples.

Results

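The integrin and tetraspanin genes of the skin's mononuclear phagocytes were followed across 16 groups of sorted mouse ear cells. They were taken as every gene with a symbol beginning Itga, Itgb (without Itgb1bp and Itgbl1) or Tspan, together with Cd9, Cd37, Cd53, Cd81, Cd82 and Cd151. A probe set had to carry exactly 1 symbol, and the one with the highest mean over the 48 arrays stood for its gene. This gave 53 genes of 19938. One of them, Itgb3bp, meets the letters of the rule but encodes a centromere protein, and it stayed at or below a log2 value of 3.50 on all 48 arrays. The other 52 comprise 18 integrin α genes, 9 integrin β genes and 25 tetraspanin genes, of which 18, 8 and 22 passed the filter on low values.

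Integrins are surface receptors made of an α and a β chain. They tie leukocytes to vessel walls, to matrix proteins and to neighbouring cells, and the chain that is paired decides the ligand. Tetraspanins are small proteins with 4 membrane passes that gather integrins, MHC class II and sheddases into patches of the membrane. Langerhans cells, the dendritic cells of the epidermis, are held among keratinocytes by E-cadherin, while dermal phagocytes lie in collagen and fibronectin.

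The cells came from untreated ears or from ears under 5% imiquimod cream (a Toll-like receptor 7 agonist), 7 mg on each ear side daily in a course of 14 days, sampled at day 5 or day 11. Mice were 8 to 11 weeks old. Sorted populations were monocytes (CD11b+ CD64low CCR2+ Ly-6Chi MHCIIlow), monocyte-derived dendritic cells (moDC, the same but MHCII+), macrophages (CD64hi CCR2low Ly-6Clow) with low or high MHC class II, CD11b dendritic cells (CD11b DC, CD64- Ly-6C- MHCII+ CD24-) and epidermal Langerhans cells (CD11b+ MHCII+ CD24+). Each group had 3 arrays. Day 11 was not profiled for monocytes, nor day 5 for MHCIIhi macrophages, and the other populations have all 3 conditions. CD11b, the product of Itgam, was part of every gate, so the sort itself bounds the level of Itgam.

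Values are log2 expression values normalised by RMA, and a change or difference is a log2 difference of group means ± SE from 1 limma model of all arrays, n = 3 arrays a group. A gene was tested when at least 3 arrays exceeded a log2 value of 3.77, and it is called higher, lower, risen or fallen at an adjusted p under 0.05. Where a group lies below 3.77, a difference against it is set by the low end of the scale and its size is not exact. In bulk RNA, fewer cells of a type and less RNA per cell cannot be told apart. Values of different genes come from different probes and are not set against each other. Array medians ran from 4.10 to 4.37, and 43 of 48 arrays correlated best with an array of their own group. Among untreated monocytes replicate 2 correlated least with its own group (0.932), and its 8 fibroblast markers averaged 10.50 against 6.60 and 7.45 on the other two arrays. Replicate 2 of CD11b DC at day 11 (0.945) was the other array that stood apart. The letter in the sample titles was the same for all untreated dermal samples and differed for treated ones, so letter and treatment cannot be told apart there. Langerhans cells untreated and at day 5 shared a letter, and so did all populations at day 5 and all at day 11. Untreated Langerhans and dermal cells differed in letter as well as in tissue. Dermal changes at day 5 thus crossed letters and Langerhans cell changes did not, and at day 11 both crossed, from different untreated letters. A difference between these responses cannot be told apart from letter. Whether replicates came from separate mice is not given in the labels, so p-values measure only the spread between these samples. Langerhans cell markers (Cd207, Epcam, Cdh1, Mfge8 and Cd24a, the last also a gate) averaged 10.73 to 11.08 on every Langerhans cell array and 5.04 to 6.51 on the untreated dermal arrays.

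Members varied widely between groups. The range of the 16 group means had a median of 1.96 over the 48 tested members and 1.00 over all 15588 tested genes, and it exceeded 2 for 22 members and for 16.4% of all genes. Tspan8 had the widest range, 6.24, followed by Tspan13 at 5.31, Itgal at 4.98, Itgax at 4.54 and Tspan4 at 4.22. The narrowest belonged to Tspan10 (0.334), Itgad (0.334), Itga10 (0.377), Itga7 (0.401) and Itgb2l (0.417), whose highest single array read 4.89.

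**Figure D1:**
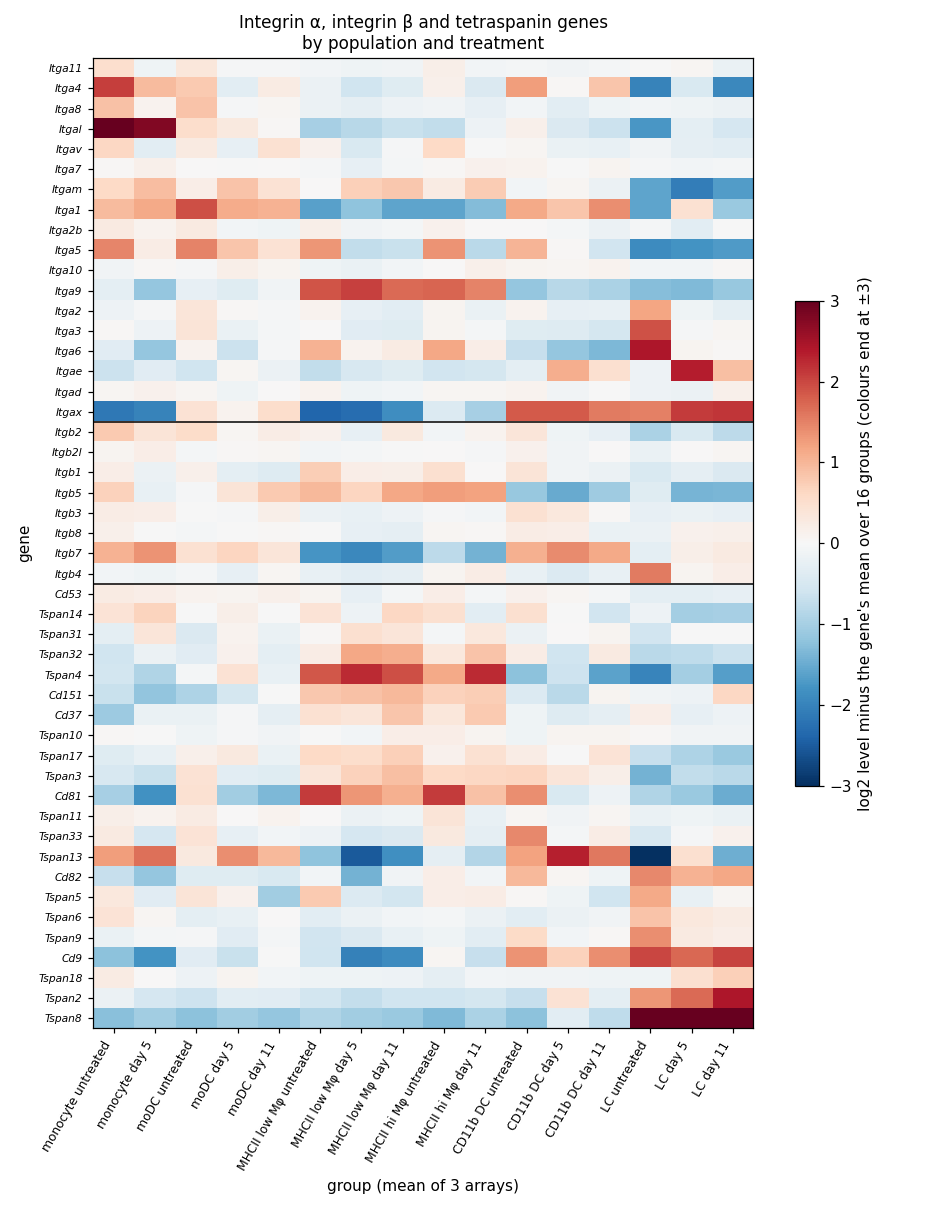
Heat map of the 48 tested genes (rows; integrin α, integrin β and tetraspanin genes from top to bottom) in the 16 groups (columns). Colour is the mean log2 level of 3 arrays minus that gene's mean over all groups, red above and blue below, ending at ±3. Tspan8 is high in the 3 Langerhans cell groups, Itgal in monocytes, and Itga9 and Tspan4 in macrophages.

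Among the 6 untreated populations 34 of 48 members differed, where 40.6% of all tested genes did (limma's F test over 6 groups). Integrins with the β2 chain are those of leukocytes: Itgal (CD11a) pairs with Itgb2 to make LFA-1, the receptor for ICAM-1, Itgam (CD11b) makes the complement receptor Mac-1, and Itgax (CD11c) makes the integrin that marks dendritic cells. Itgb2 itself stayed between 9.46 and 10.92 on the 15 untreated dermal arrays, while Itgal and Itgax ranged more widely there. Over the 6 untreated populations Itgb2 differed too (F test, adjusted p = 1.55e-08), with its lowest mean in Langerhans cells. Itgal was 9.36, 9.38 and 9.59 in untreated monocytes, 6.07 to 7.26 in moDC, and 5.06 to 5.67 in both macrophage populations. Itgal was thus 2.71 ± 0.28 lower in moDC than in monocytes on the log2 scale (adjusted p = 1.12e-08), and no array overlapped.

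Itgax ran the other way. It read 4.97, 5.04 and 5.36 in untreated monocytes, 7.29, 7.74 and 8.06 in moDC, and 8.76, 9.09 and 9.47 in CD11b DC. In MHCIIlow macrophages it read 4.69, 4.92 and 5.03, and in MHCIIhi macrophages 6.71, 6.87 and 6.97. Itgax therefore separated the members of each pair that differ by MHC class II on the gate. It was 2.57 ± 0.36 higher in moDC than in monocytes (adjusted p = 6.89e-06) and 1.97 ± 0.36 higher in MHCIIhi than in MHCIIlow macrophages (adjusted p = 0.00144). Itgad, the fourth α partner of Itgb2, stayed at 3.58 to 4.29 on all 48 arrays and did not pass any test.

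**Figure D2:**
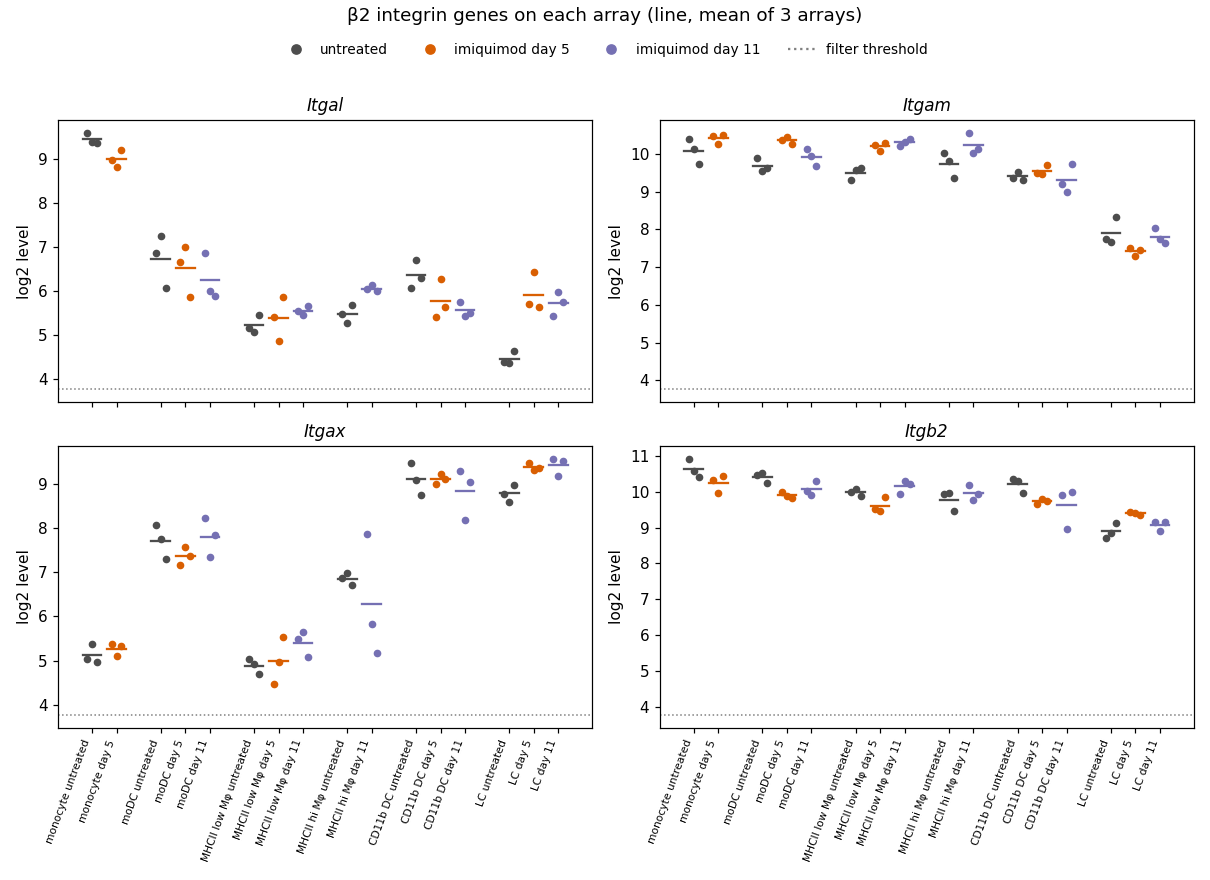
Log2 levels of Itgal, Itgam, Itgax and Itgb2 (y axes) on each array in the 16 groups (x axis). Points are arrays, lines are means of 3 arrays, colours give the treatment and the dotted line is the filter threshold of 3.77. Itgal is highest in monocytes (8.81 to 9.59), Itgax in CD11b DC and Langerhans cells, and Itgam is lowest in Langerhans cells (7.30 to 8.32).

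Itgam, Itgax and Itgad follow one another on chromosome 7 with 0 protein-coding genes between them, in RefSeq's order of genes. The promoter windows of the first and second are shown because the untreated means of these neighbours ran in opposite order over monocytes, moDC and CD11b DC (10.09, 9.69 and 9.40 for Itgam, whose differences did not pass the test), and those of Tspan8 and Tspan13 because these tetraspanins changed most between Langerhans cells and dermal cells. Sequences are RefSeq's (build GRCm38.p6), from 250 bases before to 50 after the transcript start that its promoter table uses, 5′ to 3′ on the gene's strand. For Itgax and Tspan8 that start is not the outermost start of the gene. They lie at chr7:128062390-128062689 (+ strand), chr7:128129300-128129599 (+ strand), chr10:115817034-115817333 (+ strand) and chr12:36042429-36042728 (- strand). Capitals mark GAGGAA, the core bound by PU.1 and related ETS factors, and TGTGGT, the core bound by RUNX factors, on either strand (TTCCTC and ACCACA in reverse).
Itgam: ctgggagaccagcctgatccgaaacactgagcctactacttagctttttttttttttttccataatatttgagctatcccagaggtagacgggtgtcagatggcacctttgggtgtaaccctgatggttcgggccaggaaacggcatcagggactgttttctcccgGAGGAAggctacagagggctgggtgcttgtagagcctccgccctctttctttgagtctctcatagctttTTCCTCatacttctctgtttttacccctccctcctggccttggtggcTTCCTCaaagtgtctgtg
Itgax: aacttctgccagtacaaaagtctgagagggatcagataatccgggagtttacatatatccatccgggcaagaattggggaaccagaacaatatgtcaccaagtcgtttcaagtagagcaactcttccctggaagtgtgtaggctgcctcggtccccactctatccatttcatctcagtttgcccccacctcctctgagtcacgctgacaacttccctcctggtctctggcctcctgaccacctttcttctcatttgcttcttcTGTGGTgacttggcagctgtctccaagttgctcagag
Tspan8: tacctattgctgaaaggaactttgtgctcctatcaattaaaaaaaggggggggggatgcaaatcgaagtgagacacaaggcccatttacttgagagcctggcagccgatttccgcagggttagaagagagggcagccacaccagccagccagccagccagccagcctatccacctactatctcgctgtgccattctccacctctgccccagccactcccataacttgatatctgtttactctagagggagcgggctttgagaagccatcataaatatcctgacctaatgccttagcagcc
Tspan13: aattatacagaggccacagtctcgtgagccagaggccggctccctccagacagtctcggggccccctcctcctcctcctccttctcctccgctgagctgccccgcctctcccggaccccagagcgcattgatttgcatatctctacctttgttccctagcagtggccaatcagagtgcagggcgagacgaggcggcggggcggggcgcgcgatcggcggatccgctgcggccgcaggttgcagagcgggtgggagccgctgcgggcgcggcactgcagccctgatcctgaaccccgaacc
Itgam held 3 copies of the first motif and 0 of the second, Itgax 0 and 1, and both tetraspanin windows held neither. Since no printed window held both, the motifs do not overlap in them. Over all 32851 promoter windows 28.3% held GAGGAA and 16.8% held TGTGGT, against 18 and 8 of the 44 members with a window. These are matches of letters, not measured binding.

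The step from monocyte to moDC moved few other members. Of 48, 2 were higher and 2 lower in moDC, where 2.16% of all genes were higher and 1.27% lower. Besides Itgax and Itgal they were Itga1, the α chain of a collagen receptor (1.00 ± 0.25, adjusted p = 0.0128), and Itga4, the α chain of VLA-4, a receptor for VCAM-1 and fibronectin (-1.29 ± 0.26, adjusted p = 0.00146). Fitting only the groups compared left 2 of the 4, Itgax and Itgal, and without untreated monocyte replicate 3 the Itga1 difference was 0.61 and its call was lost.

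MHCIIlow macrophages differed from moDC in 12 members, 5 higher (6.34% of all genes) and 7 lower (4.16%). Itga9, a receptor chain for tenascin and VCAM-1, read 6.55, 6.77 and 6.82 in these macrophages and 3.92, 4.69 and 5.12 in moDC, a difference of 2.14 ± 0.21 (adjusted p = 1.55e-09). The tetraspanins Tspan4 (1.93 ± 0.41), Cd151 (1.73 ± 0.35) and Cd81 (1.65 ± 0.52) were higher too, and so was Itgb1 (0.58 ± 0.15). The Cd81 call was lost without untreated moDC replicate 3 or any one of the 3 macrophage arrays, and those of Cd151 and Itgb1 with only these groups fitted. Without untreated moDC replicate 3 the Cd151 difference was 1.14. Cd151 is the tetraspanin that binds laminin-binding integrins, Cd81 belongs to the B cell co-receptor and restrains cell fusion, and Tspan4 is known from migrasomes, the vesicles that migrating cells leave behind. Itga1 was lower, at 3.10, 3.13 and 3.37 in macrophages and 6.60, 6.63 and 7.06 in moDC, a difference of -3.56 ± 0.25 (adjusted p = 1.82e-13), although the 3 macrophage arrays were below the threshold of 3.77. Itgax, Itgb7, Itgal, Tspan13, Itga8 and Itga4 were also lower. Itga8 exceeded the threshold on 4 of 48 arrays, all untreated monocytes or moDC. It was tested only because it is high there, here and in its other calls below. Macrophages with high MHC class II differed from those with low in Itgax and Itgb7 (0.99 ± 0.21, adjusted p = 0.0105), both higher, while 0 members were lower (0.552% and 0.346% of all genes). The Itgb7 call was lost without any of 3 of the 6 arrays (untreated MHCIIlow replicate 3, untreated MHCIIhi replicates 2 and 3) and with only the groups compared.

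CD11b DC stood apart from moDC in 7 members, 4 higher (1.92% of all genes) and 3 lower (1.65%). Cd9 read 10.31, 10.32 and 10.45 in CD11b DC and 8.53 to 8.89 in moDC (1.68 ± 0.38, adjusted p = 0.00738). Cd82, which pairs with Cd9 in many cells, was 1.34 ± 0.23 higher, Itgax 1.41 ± 0.36 and Tspan33 1.05 ± 0.23. Tspan33 is one of the TspanC8 proteins that escort the sheddase ADAM10 to the cell surface. Itga8 (-0.94), Itga9 (-0.90) and Itga3 (-0.73) were lower. Itga8 was below the threshold on every CD11b DC array and was tested only because it is high in untreated monocytes and moDC. When only these groups were fitted Cd9 alone stayed past the test, and the count fell from 7 to 4 without untreated moDC replicate 1 or without untreated CD11b DC replicate 2.

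Of the contrasts between untreated populations, that of Langerhans cells had the most calls, among members and among all genes. It sets them against 3 dermal populations together, so its count does not rank beside those of single pairs. Against the mean of moDC, MHCIIlow macrophages and CD11b DC, 11 of 48 members were higher and 17 lower in untreated skin, where 14.3% and 14.8% of all genes were. Tspan8, a tetraspanin known from epithelial and tumour exosomes, read 8.89, 8.90 and 9.39 in untreated Langerhans cells. On the 15 untreated dermal arrays it ran from 2.75 to 3.80 and passed the filter threshold on 1. Its difference was 5.94 ± 0.24 (adjusted p = 1.51e-21), a size limited by the low end of the scale in dermal cells, and on 39 dermal arrays of all conditions it exceeded 3.77 on 3. At day 5 the difference was 4.43 ± 0.24 and at day 11 it was 5.92 ± 0.24, and no Langerhans cell array overlapped a dermal one.

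Other tetraspanins shared that side. Cd9 lay at 10.91, 11.01 and 11.18 in untreated Langerhans cells and was 1.88 ± 0.31 above the dermal mean. Cd82 (1.26 ± 0.19), Tspan2 (1.96 ± 0.18) and Tspan9 (1.41 ± 0.18) were also higher, as was Tspan6, by 1.17 ± 0.24. Tspan6 exceeded the threshold on 3 of 48 arrays: untreated Langerhans cell replicates 1 and 2 (4.54 and 4.34) and untreated monocyte replicate 2 (4.78). It was thus tested only because it is high there, and it passed the threshold on only 2 of 9 Langerhans cell arrays. Untreated Langerhans cell replicate 3 read 3.24. Cd9, Cd82, Tspan2 and Itgax stayed higher at day 5 (2.40 ± 0.31, 1.61 ± 0.19, 1.90 ± 0.18 and 2.22 ± 0.29) and at day 11 (2.20 ± 0.31, 1.39 ± 0.19, 2.83 ± 0.18 and 2.07 ± 0.29). High Itgax was not particular to Langerhans cells. Its means untreated, at day 5 and at day 11 were 8.78, 9.37 and 9.42 there and 9.11, 9.11 and 8.84 in CD11b DC. The dermal mean also takes in MHCIIlow macrophages, at 4.88, 4.99 and 5.40. Cd9 and Cd82 in CD11b DC likewise lay nearer to Langerhans cells than in these macrophages. Cd9 means were 11.035, 10.75 and 11.05 in Langerhans cells, 10.36, 9.71 and 10.42 in CD11b DC and 8.42, 6.99 and 7.13 in MHCIIlow macrophages. Untreated Cd82 means were 10.22, 9.76 and 8.71 in the same order of populations. In all, 9 members were higher and 10 lower at day 5 (8.17% and 6.34% of all genes), and 7 and 15 at day 11 (11.5% and 7.56%). After median-centring the share of higher calls at day 5 went from 56.3% to 45.4% (members 6 and 10).

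Several integrins were lower in Langerhans cells. Itga5, the α chain of the fibronectin receptor α5β1, read 5.12, 5.48 and 6.59 in untreated Langerhans cells and 8.39 to 9.61 on the 15 untreated dermal arrays (-3.17 ± 0.24, adjusted p = 2.44e-13). Itga4 differed by -2.62 ± 0.21, Itga1 by -2.06 ± 0.20 and Itgal by -1.64 ± 0.23, and for Itga1 the arrays overlapped those of macrophages. Itgam read 7.66, 7.75 and 8.32 against 9.30 to 10.38 (-1.62 ± 0.15, adjusted p = 4.34e-11), and Itgb2 differed by -1.30 ± 0.15. Among tetraspanins Tspan13 (-3.08 ± 0.29), Cd81 (-2.22 ± 0.42), Tspan4 (-2.16 ± 0.33) and Tspan3 (-1.89 ± 0.27) were lower. Itga9 did not pass the threshold on any of the 9 Langerhans cell arrays. Cd53, a pan-leukocyte tetraspanin, lay between 11.40 and 12.09 on all 48 arrays and differed by -0.39 ± 0.08 in untreated Langerhans cells (adjusted p = 0.000215). The call of Itgb3 (-0.33 ± 0.13) was lost in 14 of 20 alternatives.

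A last group of members was high in untreated Langerhans cells and low after treatment. Itga6 with Itgb4 forms α6β4, the laminin receptor of hemidesmosomes, Itga3 makes the other main laminin receptor of basal keratinocytes and Itga2 a collagen receptor. In untreated Langerhans cells Itga6 read 7.07, 7.80 and 8.29, Itgb4 6.91, 7.30 and 7.55, Itga3 6.10, 6.49 and 7.16, and Itga2 4.22, 4.86 and 5.48. Against the dermal mean they were higher by 2.26 ± 0.31, 1.72 ± 0.13, 1.89 ± 0.15 and 0.98 ± 0.17, with arrays that overlapped dermal ones for Itga6 and Itga2. At day 5 Itga6 had fallen to 5.06, 5.31 and 5.79, a change of -2.33 ± 0.37 (adjusted p = 1.04e-05). Itga3 changed by -1.93 ± 0.19, Itgb4 by -1.47 ± 0.16 and Itga2 by -1.29 ± 0.21, with no overlap of arrays. At day 11 they remained down, by -2.39 ± 0.37, -1.83 ± 0.19, -1.36 ± 0.16 and -1.47 ± 0.21.

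Keratinocyte markers moved with these 4 genes. The 14 markers averaged 9.91 to 10.30 on untreated Langerhans cell arrays, 7.80 to 8.55 at day 5, 8.03 to 8.45 at day 11 and 5.35 to 8.43 on dermal arrays. Of the 14, 13 were higher in untreated Langerhans cells than in dermal cells, 11 fell at day 5 and 9 fell at day 11, and 0 rose. All 14 exceeded the threshold on every Langerhans cell array. Their part in the fall of Itga6, Itgb4, Itga3 and Itga2 was not tested.

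**Figure D3:**
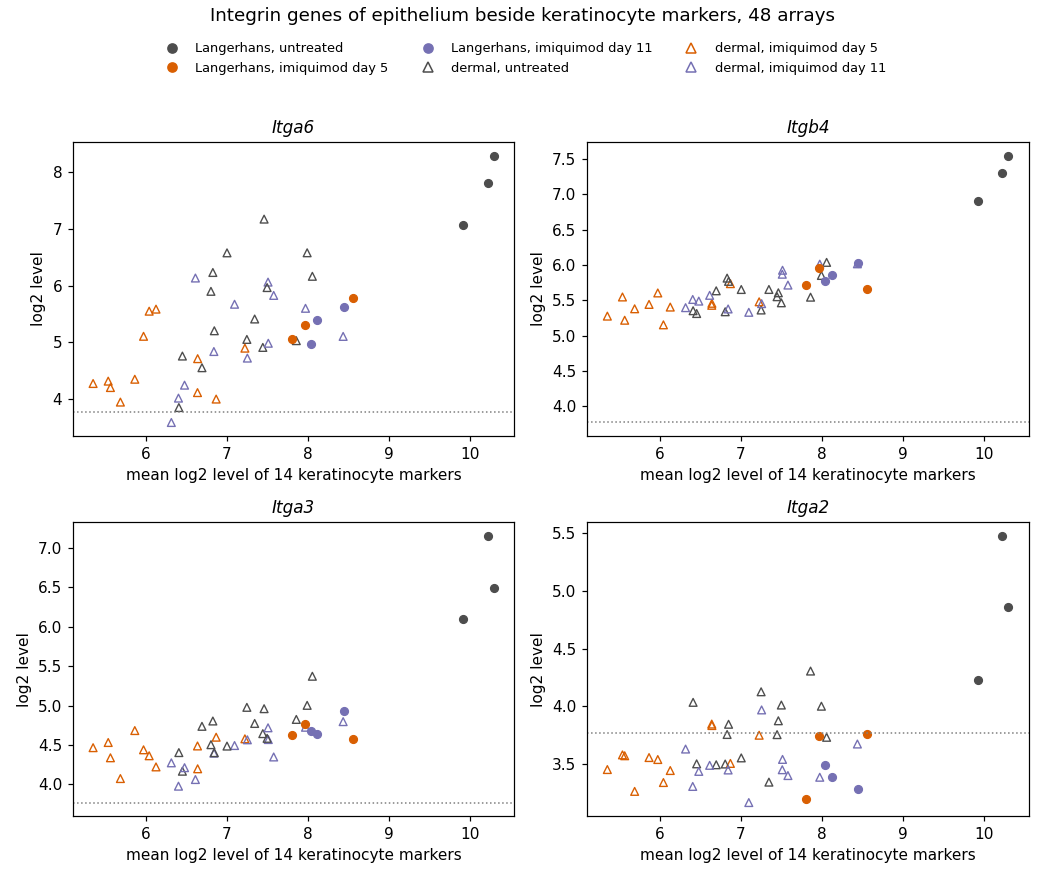
Log2 levels of Itga6, Itgb4, Itga3 and Itga2 (y axes) against the mean log2 level of 14 keratinocyte markers (x axis) on all 48 arrays. Filled circles are Langerhans cell arrays, open triangles dermal arrays, colours give the treatment and the dotted line is the filter threshold. The 3 untreated Langerhans cell arrays lie alone at the upper right, with marker means of 9.91 to 10.30, and the treated ones lie between 7.80 and 8.55.

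Under imiquimod at day 5, 6 members rose and 7 fell in Langerhans cells (8.64% and 7.48% of all genes). Tspan13 rose most, from 4.37, 4.46 and 4.84 to 7.79, 7.83 and 8.44, a change of 3.46 ± 0.35 (adjusted p = 1.21e-09). Itgae (CD103), which with Itgb7 forms the receptor for E-cadherin, rose from 3.87, 4.15 and 4.32 to 6.51, 6.57 and 6.74, a change of 2.49 ± 0.22 (adjusted p = 6.25e-11). Its partner Itgb7 went from a mean of 6.43 to 6.90 and did not pass the test (adjusted p = 0.148), while its ligand gene Cdh1 was at 10.63 and 10.40. Itga1 rose from 3.09, 3.29 and 3.35, below the threshold, to 4.80, 5.41 and 5.61 (2.03 ± 0.25). Itga4 rose from 4.89, 5.82 and 6.34 to 7.02, 7.04 and 7.61 (1.54 ± 0.26), and Itgal from 4.37 to 4.63 up to 5.63 to 6.42 (1.46 ± 0.28). The calls of these 5 rises (Tspan13, Itgae, Itga1, Itga4 and Itgal) held in all the alternatives tried.

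Tspan18 read 3.41, 3.44 and 3.58 untreated and 3.98, 4.00 and 4.31 at day 5 (0.62 ± 0.21). It exceeded the filter threshold on 7 of 48 arrays, the 6 treated Langerhans cell arrays and untreated monocyte replicate 2, so it was tested only because it is high there, and its call was lost without any 1 of the 6 arrays compared. Beside the laminin and collagen receptors, Tspan5 (-1.36 ± 0.42), Tspan8 (-1.19 ± 0.29) and Tspan9 (-1.13 ± 0.22) fell. Tspan5 is another TspanC8 protein, and its call was lost without untreated replicate 1 or day 5 replicate 2 or 3. Itgam read 7.30 to 7.51 at day 5 against 7.66 to 8.32 untreated (-0.49 ± 0.19), and Itgax 9.30 to 9.46 against 8.59 to 8.97 (0.59 ± 0.36). Neither change passed the test (adjusted p = 0.0688 and 0.339).

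Markers of monocytes and macrophages moved with the rises. The 4 monocyte markers measured averaged 3.49 to 3.67 on untreated Langerhans cell arrays, where none exceeded the threshold throughout, 5.70 to 6.55 at day 5 and 3.89 to 5.09 at day 11. All 4 rose at day 5, and Ccr2 went from 3.47 to 7.24 and Plac8 from 3.52 to 8.11. Of 8 macrophage markers 5 rose and 1 fell, and their mean went from 5.75 to 5.90 up to 6.72 to 7.50. Their part in the rises of Tspan13, Itga1, Itga4 and Itgal was not tested. Itgae lay at 3.28 to 4.03 on all 15 macrophage arrays and at 3.52 to 4.01 on all monocyte arrays. Its day 5 values were 4.15 to 4.45 in moDC, 4.97 to 5.86 in CD11b DC and 6.51 to 6.74 in Langerhans cells. Among 5 T cell markers Cd2 alone passed the test, from 5.68 to 7.77. Cd3d went from 3.13 to 4.09 (adjusted p = 0.111), Cd3e from 4.55 to 4.94, Cd3g from 3.72 to 3.64 and Cd8a from 3.91 to 3.94. Their part in the rise of Itgae was not tested. Of 7 conventional dendritic cell markers 6 rose, of 8 fibroblast markers 3, of 3 platelet markers 1 (Pf4) and of 5 mast cell markers 1 (Kit). Among the dendritic cell markers Flt3 went from 6.02 to 8.42 and Ccr7 from 7.17 to 10.36. The part of these lists in the rises of Itgae and the other members was not tested. None of 5 Langerhans cell, 5 endothelial, 4 neutrophil and 3 melanocyte markers passed the test.

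By day 11, 4 of the 6 early rises had receded past the test (Tspan13, Itga1, Itga4 and Itgae), while Itgal and Tspan18 had not. Against untreated Langerhans cells, 5 members were higher (9.31% of all genes) and 5 lower (8.41%). Tspan13 read 4.99, 6.04 and 7.15 (1.51 ± 0.35), Itgae 4.58, 5.25 and 5.63 (1.05 ± 0.22), and Itgal 5.43, 5.76 and 5.98 (1.26 ± 0.28). Tspan2 (1.09 ± 0.22) and Tspan18 (0.85 ± 0.21) were also higher. Here too, Tspan18 was tested only because it is high in treated Langerhans cells. Besides the laminin and collagen receptors, Tspan9 stayed lower (-1.20 ± 0.22). Fitting only these groups ended the calls of Tspan13, Tspan18 and Tspan2, and leaving out day 11 replicate 2 ended those of Tspan13 and Tspan18, whose changes were then 0.96 and 0.51. The Tspan2 arrays overlapped.

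From day 5 to day 11, 1 member rose and 4 fell in Langerhans cells (0.577% and 1.54% of all genes). Tspan13 changed by -1.96 ± 0.35, Itga1 by -1.56 ± 0.25, Itga4 by -1.46 ± 0.26 and Itgae by -1.45 ± 0.22. Tspan8 returned to 8.93, 9.19 and 9.32 (1.28 ± 0.29, adjusted p = 0.00874), a call lost without day 5 replicate 2 or day 11 replicate 3. That of Tspan13 was lost with only these groups fitted. Over the same days 3 of the 4 monocyte markers and 3 of the 8 macrophage markers fell, and 0 rose. The letter in the titles also differed between these days.

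**Figure D4:**
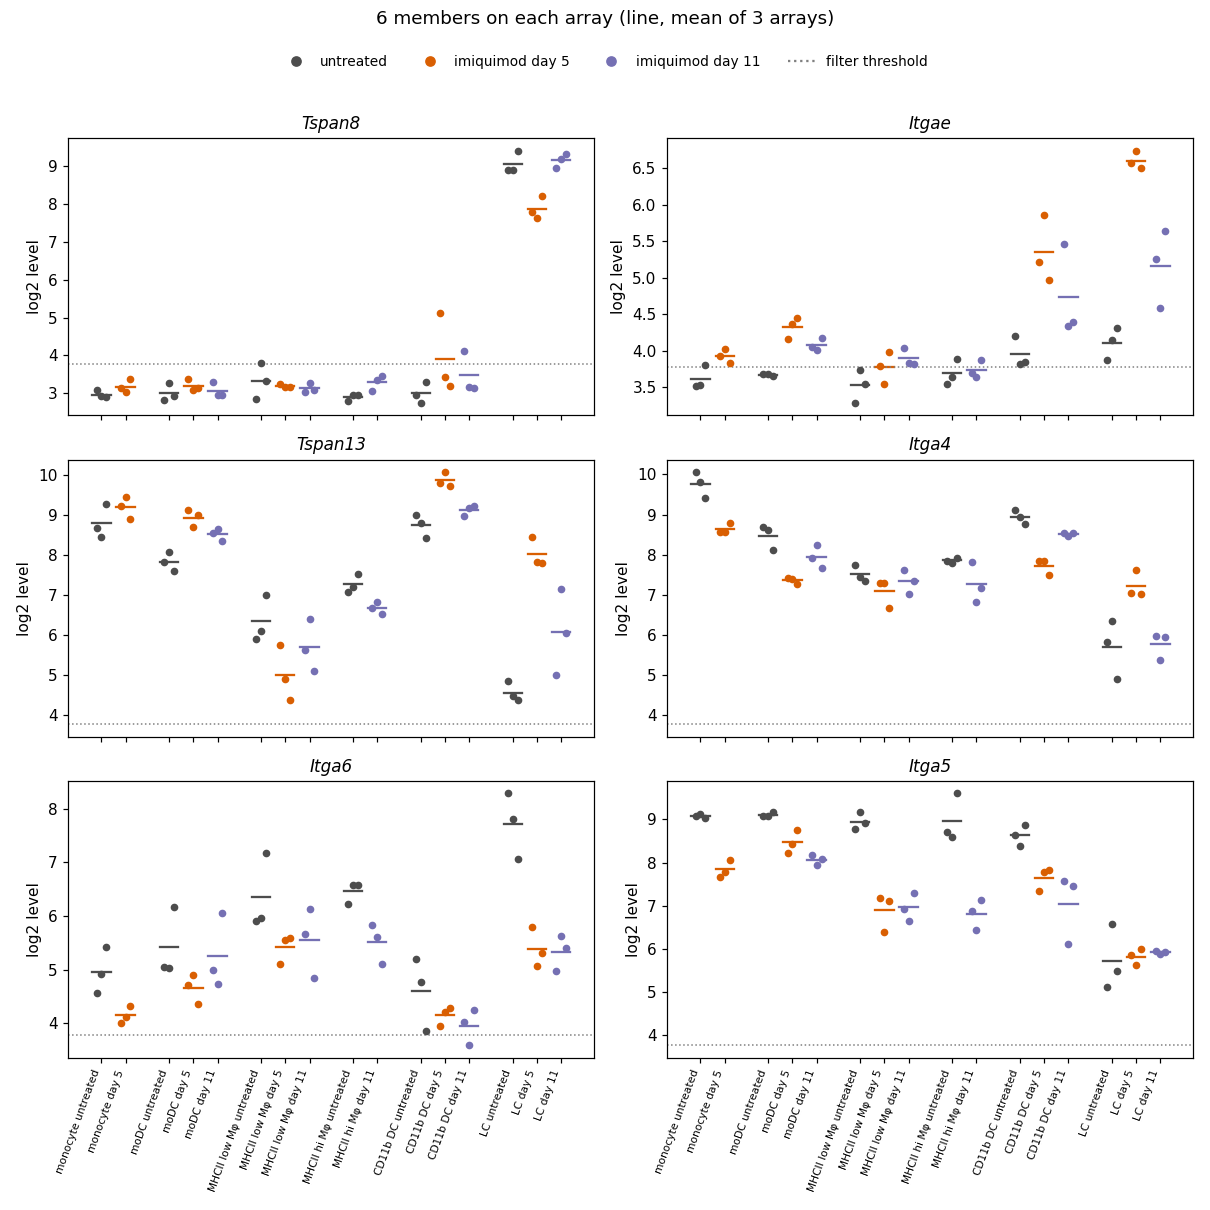
Log2 levels of Tspan8, Itgae, Tspan13, Itga4, Itga6 and Itga5 (y axes) on each array in the 16 groups (x axis). Points are arrays, lines are means of 3 arrays, colours give the treatment and the dotted line is the filter threshold of 3.77. Tspan8 lies between 7.62 and 9.39 in Langerhans cells and at 5.12 or below elsewhere. Itgae peaks in Langerhans cells at day 5 (6.51 to 6.74). The mean of Itga5 lies below untreated in each treated dermal group, though not past the test in moDC at day 5, and is flat in Langerhans cells.

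RNA of both chains of the α5β1 receptor fell in the dermis, while the receptor itself was not measured. Itga5 and its partner Itgb1 were lower at day 11 in all 4 dermal populations profiled then, which was true of 2 of 48 members and of 1.55% of all genes. Itga5 read 8.71, 8.60 and 9.61 in untreated MHCIIhi macrophages and 6.89, 6.43 and 7.12 at day 11, a change of -2.16 ± 0.30 (adjusted p = 3.57e-06). In MHCIIlow macrophages it went from 8.77, 8.92 and 9.16 to 6.65, 6.93 and 7.31 (-1.99 ± 0.30). CD11b DC (-1.58 ± 0.30) and moDC (-1.04 ± 0.30) showed smaller falls. No array overlapped in any of the 4. Itgb1 fell by less, by 0.47 to 0.56 on the log2 scale in each. In CD11b DC at day 11, replicate 2, an array that stood apart, read lowest for both genes. It read 6.11 for Itga5 against 7.57 and 7.46, and 8.39 for Itgb1 against 8.95 and 9.09. Without that array the Itgb1 call in CD11b DC was lost, so the count of all 4 populations rests on it for Itgb1.

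At day 5 Itga5 had already fallen in MHCIIlow macrophages (-2.06 ± 0.30), monocytes (-1.24 ± 0.30) and CD11b DC (-0.98 ± 0.30, lost in 6 of 15 alternatives). In moDC it changed by -0.64 ± 0.30 and did not pass the test (adjusted p = 0.171). In Langerhans cells Itga5 changed by 0.09 ± 0.30 at day 5 and 0.19 ± 0.30 at day 11. The difference between the Langerhans cell and the dermal response was 1.32 ± 0.35 at day 5 (adjusted p = 0.00767) and 1.73 ± 0.35 at day 11 (adjusted p = 0.000468). For Itgb1 it was 0.65 ± 0.17 and 0.56 ± 0.17. The untreated arrays of Langerhans and dermal cells differed in title letter, so these differences cannot be told apart from letter. The Itga5 calls in macrophages held in every alternative, whereas in CD11b DC at day 11 it was lost with only the groups compared, and in moDC at day 11 under quantile normalisation and without any of 5 of the 6 arrays (all but day 11 replicate 1). The Itgb1 calls were lost in part of the alternatives in each population. Markers of other cells moved beside these falls. Of 14 keratinocyte markers 5 fell at day 5 in monocytes, 6 in moDC, 7 in MHCIIlow macrophages and 7 in CD11b DC, while at day 11 in MHCIIhi macrophages 4 rose and 0 fell. Of 8 fibroblast markers 3 fell in monocytes at day 5 and 5 in moDC at day 11. Their part in the falls of Itga5 and Itgb1 was not tested.

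In monocytes at day 5, 1 member rose and 7 fell (6.43% and 6.31% of all genes). Itga4 went from 9.41, 9.81 and 10.06 to 8.57, 8.57 and 8.79 (-1.11 ± 0.26), and Itga9, Itgav, Itga8, Tspan33 and Itga11 fell with Itga5. Of these, Itga8 was tested only because it is high in untreated monocytes and moDC. Cd37, a tetraspanin of leukocytes, rose by 0.89 ± 0.28. Its untreated replicate 3 read 7.23 against 8.39 and 8.96 on the others, the change was 0.41 without that array, and the call was lost then and without day 5 replicate 2 or 3. The count of 8 dropped to 5 without untreated replicate 2, the array with high fibroblast markers, to 5 without day 5 replicate 2 and to 4 without day 5 replicate 3. Without untreated replicate 2 the changes of Itga8 and Itga11 were -0.34 and -0.38 in place of -0.76 and -0.63 and lost their calls. Without untreated replicate 3 that of Itga8 was -1.15. With only these groups fitted 1 call remained, Itga5. Higher calls made up 50.5% of all calls here, and 65.1% after each array was centred on its median, with 1 member rising and 6 falling.

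In moDC at day 5, 3 members rose and 4 fell (5.68% and 5.61% of all genes). Itga4 fell from 8.11, 8.61 and 8.69 to 7.27, 7.39 and 7.43 (-1.11 ± 0.26, adjusted p = 0.00427), the one call of the 7 that held in all alternatives. Itgam (0.66 ± 0.19), Itgae (0.66 ± 0.22) and Tspan13 (1.11 ± 0.35) rose, and Itga8, Itga1 and Itga3 fell. Both here and at day 11, Itga8 was tested only because it is high in untreated moDC and monocytes. At day 11 none rose (0 of 48, against 2.59% of all genes) and 6 fell (5.84%): Cd81 (-1.81 ± 0.52), Tspan5 (-1.44 ± 0.42), Itga5, Itga1, Itga8 and Itgb1. The 8 fibroblast markers moved with these changes, averaging 8.38 to 8.52 in untreated moDC, 5.69 to 7.29 at day 5 and 6.33 to 7.23 at day 11. Of 14 keratinocyte markers 6 fell at day 5 and 3 at day 11, and 0 rose. The part of either list in the falls of Itga8, Itga3 and the rest was not tested. After median-centring the share of higher calls over all genes went from 50.3% to 68.8% at day 5 (members 3 and 3) and from 30.7% to 53.7% at day 11 (members 0 and 5). The count at day 5 was 2 without day 5 replicate 1 or 2, 3 without untreated replicate 3 and 4 without day 5 replicate 3, and at day 11 it was 2 without untreated replicate 3 and 1 without day 11 replicate 3.

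In MHCIIlow macrophages 2 members rose and 6 fell at day 5 (7.22% and 6.95% of all genes), and 2 rose and 4 fell at day 11 (4.33% and 5.40%). Itgam rose both times, from 9.30, 9.58 and 9.63 to 10.07, 10.25 and 10.28 at day 5 (0.69 ± 0.19) and to 10.20, 10.31 and 10.39 at day 11 (0.80 ± 0.19). Tspan32, a tetraspanin of blood cells, rose by 0.92 ± 0.27 and 0.85 ± 0.27. Cd9 fell by 1.43 at day 5 and by 1.29 at day 11 on the log2 scale, and Cd82 fell at day 5 from 8.18, 8.92 and 9.02 to 7.20, 7.20 and 7.74 (-1.33 ± 0.23, adjusted p = 0.000105). Tspan13 fell here at day 5 (-1.33 ± 0.35), opposite in sign to its change in Langerhans cells, moDC and CD11b DC. At day 5, 7 of 14 keratinocyte markers and 2 of 5 mast cell markers fell with these members, Cpa3 from 7.60 to 5.27 and Mcpt4 from 9.72 to 7.50. Their part was not tested. At day 11 Tspan5 fell (-1.34 ± 0.42), a change that was -0.72 and lost its call without untreated replicate 1. The count was 5 at day 5 without untreated replicate 3, and 3 at day 11 without untreated replicate 1 or 3 or day 11 replicate 3.

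In MHCIIhi macrophages at day 11 none of 48 rose (7.45% of all genes) and 4 fell (7.49%). Besides Itga5 and Itgb1 they were Itgb7 (-0.65 ± 0.21) and Tspan11 (-0.61 ± 0.19). Only the Itga5 call held in all alternatives, and the count was 2 without untreated replicate 2 or 3 or day 11 replicate 2 and 1 without day 11 replicate 3.

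CD11b DC had 4 members that rose and 7 that fell at day 5 (3.02% and 4.97% of all genes). Itgae went from 3.82, 3.85 and 4.19 to 4.97, 5.21 and 5.86 (1.39 ± 0.22, adjusted p = 5.44e-05), and Tspan2 from 3.20, 3.41 and 3.42 to 4.36, 4.53 and 4.55 (1.14 ± 0.22). Tspan13 rose by 1.12 ± 0.35. Tspan8 rose by 0.91 ± 0.29, which rested on replicate 1: it read 5.12 there and 3.19 and 3.43 on the other two arrays, and without replicate 1 the call was lost. Langerhans cell markers moved with these rises, averaging 6.34 to 6.51 untreated and 8.40 to 8.60 at day 5, and 3 of 5 rose. Of 4 monocyte markers 2 rose, Plac8 from 4.99 to 8.65 and Vcan from 4.24 to 6.71, and 1 fell, while 7 of 14 keratinocyte markers fell. The part of these lists in the rises of Itgae, Tspan2, Tspan8 and Tspan13 was not tested.

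Tspan33 fell in CD11b DC from 5.05, 5.16 and 5.94 to 3.59, 3.99 and 4.06 (-1.50 ± 0.23, adjusted p = 2.05e-05), and Itga4 from 8.77, 8.93 and 9.11 to 7.49, 7.83 and 7.84 (-1.22 ± 0.26). Cd81, Cd82, Itga5, Tspan32 and Itgb1 fell too. At day 11, 1 rose and 5 fell (3.56% and 6.81% of all genes): Itgae rose by 0.78 ± 0.22, and Itga5, Tspan33 (-1.23 ± 0.23), Cd82 (-1.10 ± 0.23), Itgb2 and Itgb1 fell. None of these 6 calls held in all alternatives, and without day 11 replicate 2 there were 4. Without that array Itgb2 changed by -0.26 and Itgb1 by -0.35 in place of -0.59 and -0.56, and without day 11 replicate 1 Itgae changed by 0.41, and each lost its call. Langerhans cell markers averaged 7.34 to 9.09 at day 11 and 3 of 5 rose, and their part in the rise of Itgae was not tested. Median-centring moved the share of higher calls at day 5 from 37.8% to 50.9% (members 4 and 4). At day 5 the count of 11 was 7 after quantile normalisation, 4 without day 5 replicate 1, 5 without untreated replicate 1, 6 without day 5 replicate 2 and 7 without untreated replicate 2 or 3.

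Tested as a difference, the responses of Langerhans cells and of the 3 dermal populations diverged for 16 members at day 5, 9 in the upward direction in Langerhans cells (6.85% of all genes) and 7 in the downward (5.61%). At day 5 the dermal change crossed title letters and that of Langerhans cells did not, so letter and the difference cannot be told apart. Itga4 showed opposite changes, 1.54 in Langerhans cells and -0.92 in the dermal mean, a difference of 2.45 ± 0.30 (adjusted p = 9.61e-08). Tspan13 (3.16 ± 0.41), Itga1 (2.26 ± 0.29), Itgae (1.73 ± 0.26) and Itgal (1.67 ± 0.32) followed. Itgam had a difference of -0.99 ± 0.22, from -0.49 in Langerhans cells, which did not itself pass the test, and 0.50 in the dermal mean. At day 11, 13 members diverged, 7 upward (6.56% of all genes) and 6 downward (5.09%), and Itga4 was not among them. Without untreated Langerhans cell replicate 2 that count was 8. Tspan18, among the 13, was tested only because it is high in treated Langerhans cells. Without day 11 replicate 2 of Langerhans cells the differences of Tspan13 and Tspan18 were 0.82 and 0.50 in place of 1.36 and 0.84, and at day 5 that of Itga2 was -0.62 in place of -0.94 without untreated replicate 2, all with their calls lost.

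**Figure D5:**
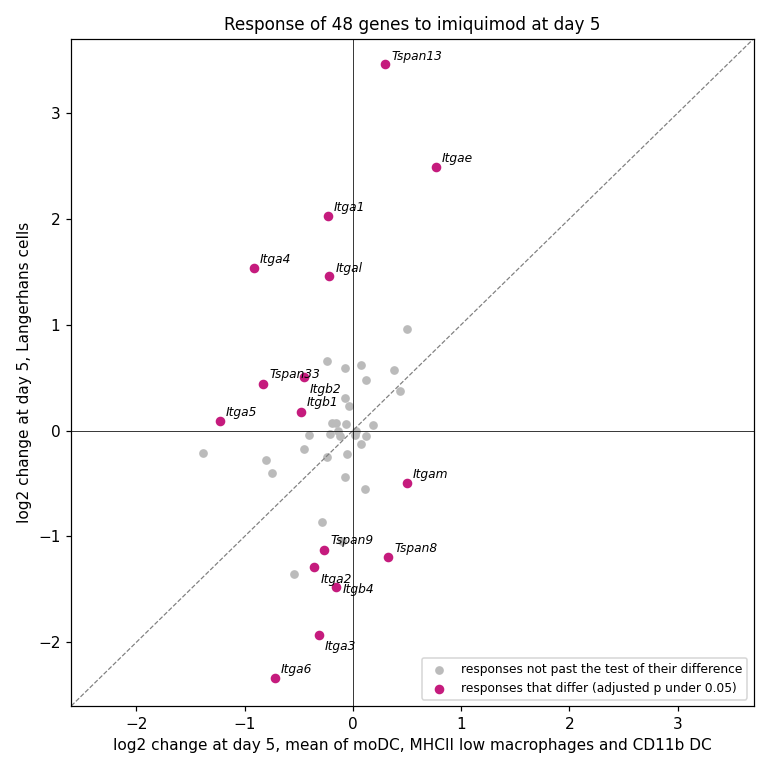
Change at day 5 in Langerhans cells (y axis) against the mean change in moDC, MHCIIlow macrophages and CD11b DC (x axis), both log2 differences from untreated, for 48 genes. Pink points are the 16 genes whose responses differ past the test, and the dashed line marks equal change. Tspan13 and Itgae lie highest, Itga6 lowest, and Itga4 in the upper left.

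Genes that act with these receptors were followed as lists. Of 31 tested genes of integrin activation and linkage to actin, 6 rose and 4 fell in Langerhans cells at day 5, where 8.64% and 7.48% of all genes did. Parvb, an adaptor of the integrin-linked kinase complex, rose by 3.19 ± 0.35, the kinase gene Fgr by 1.57 ± 0.37, the actin cross-linker Flna by 1.24 ± 0.22 and the leukocyte kindlin Fermt3 by 1.10 ± 0.23. The epithelial kindlin Fermt1 (-1.48 ± 0.22) and Bcar1, Rap1b and Src fell. Of 40 integrin ligand genes 2 rose and 5 fell. Fn1, which encodes fibronectin, rose by 3.42 ± 0.37, and Thbs1 (-2.06 ± 0.39) and the laminin-332 chains Lama3 (-1.69 ± 0.12) and Lamb3 fell, beside the keratinocyte markers. Of 19 tetraspanin partners 4 rose, among them Dpp4 (2.10 ± 0.31) and Cd36 (1.87 ± 0.50), and 3 fell (Hbegf, Erbb2 and Notch1). In the same comparison 4 of 4 monocyte markers rose, and of 8 macrophage markers 5 rose and 1 fell. The part of any marker list in these changes was not tested.

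In untreated Langerhans cells against dermal cells, 7 of the 31 activation genes were higher and 14 lower, where 14.3% and 14.8% of all genes were. Parvb differed by -5.40 ± 0.29 and Syk by -2.92 ± 0.32, Parvg by 2.47 ± 0.30. Of the ligand genes 8 were higher, led by Mfge8 (5.39 ± 0.40) and Cdh1 (3.99 ± 0.29), and 10 lower, led by Fn1 (-5.59 ± 0.31) and Icam1 (-2.06 ± 0.21). Of the partners 7 were higher, led by Epcam (4.32 ± 0.16), and 8 lower, led by Cd36 (-6.18 ± 0.41). Cd63, a tetraspanin of lysosomes and exosomes that the symbols used here leave out, was 0.78 ± 0.14 higher.

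Some members stayed near the floor. Itgb6, Tspan1, Tspan12 and Tspan15 did not reach the threshold on 3 arrays and were not tested. Itgb8, whose product activates TGF-β, exceeded it on 4 of 48 arrays. These were single arrays of CD11b DC untreated (4.05) and at day 5 (4.18), and of MHCIIhi macrophages (3.91) and Langerhans cells (3.95) at day 11. Itga8 exceeded it on 4, all of them untreated monocytes or moDC. The platelet integrin genes Itga2b (3.80 to 4.79) and Itgb3 (3.81 to 4.91) stayed low on all 48 arrays, and Itgav, the α chain that pairs with Itgb3, Itgb5, Itgb6 and Itgb8, passed the test only for its fall in monocytes (-0.94 ± 0.26). Among the neighbouring pairs Itga2 and Itga1 on chromosome 13, Tspan18 and Cd82 on chromosome 2, Tspan11 and Tspan9 on chromosome 6 and Tspan32 and Cd81 on chromosome 7, Itga2 fell and Itga1 rose in Langerhans cells at day 5.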

How the data were processed

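RNA of the sorted cells (1 to 20 ng, amplified in 2 rounds, per the labels' protocols) was hybridised to Affymetrix mouse gene arrays. The deposited values are log2 expression values; RMA, oligo and limma are named in the submitters' processing notes, with no versions given. Of 35556 probe sets 21789 carried 1 symbol, 1621 several and 12146 none, by the platform annotation, and 3 probe sets with Itgam and another symbol were left out. A gene was tested if 3 or more arrays exceeded 3.77, the 40th percentile of the table. Tests were made in 1 limma model of 16 groups (limma 3.58.1, R 4.3.3), with Benjamini-Hochberg adjustment over all 15588 genes. Dermal means the equal mean of moDC, MHCIIlow macrophages and CD11b DC. Digestion was with dispase at either of several settings, and which sample had which is not given in the sources used here.

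Alternatives were quantile normalisation, median-centring, no filter, a stricter filter (60th percentile), averaging probe sets of a gene, trend and robust variance, only the groups compared, a replicate block, a random block, and leaving out each array and both arrays that stood apart. The model was tested on simulated data for the Langerhans cell change at day 5. It recovered 17 of 67 differences of size 0.5, 46 of 67 of size 1 and 63 of 66 of size 2, with 11 false calls. A small change can therefore miss the test. Genes named are a panel of known integrins and tetraspanins, up to 6 non-overlapping rises and falls a comparison, up to 4 partner genes each way, and the 5 widest and 5 narrowest ranges. Tspan6, the untested members and the cell type markers given singly fall outside that rule and were named after their values were seen. Members and lists were chosen with earlier results of these data known. The number of arrays limits the precision.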

Additional observations from a re-analysis of the deposited data

Results flagged for a closer look

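These values were picked out because the change under imiquimod, tested as a difference between Langerhans cells and the mean of 3 dermal populations (limma, 3 arrays a group), passed the threshold. A positive value means that the change was more upward in Langerhans cells, on the log2 scale. Untreated Langerhans and dermal arrays differed in title letter, so these values cannot be told apart from letter.

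At day 5 the integrin α genes with positive values were Itga4 (2.45), Itga1 (2.26), Itgae (1.73), Itgal (1.67) and Itga5 (1.32). The β genes Itgb2 and Itgb1 had 0.954 and 0.653, and the tetraspanins Tspan13 and Tspan33 had 3.16 and 1.26. Negative values at day 5 belonged to Itga6 (-1.62), Itga3 (-1.61), Itgb4 (-1.32), Itgam (-0.994) and Itga2 (-0.937), and to Tspan8 (-1.52) and Tspan9 (-0.862).

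At day 11 positive values belonged to Itga5 (1.73), Itgal (1.58) and Itgb1 (0.561), and to Tspan13 (1.36), Tspan33 (1.28), Tspan2 (0.876) and Tspan18 (0.844). Of these, Tspan18 was tested only because it is high in treated Langerhans cells. Negative values belonged to Itga6 (-1.85), Itga3 (-1.51), Itgb4 (-1.38), Itgb5 (-1.37), Tspan9 (-1.13) and Itga2 (-1.08). The 4 laminin and collagen receptor genes Itga6, Itga3, Itgb4 and Itga2 were negative at both times.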

How the results depend on the processing

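Of 207 calls of members, 121 held in all alternatives and 0 reversed. Fitting only the groups compared, which leaves fewer arrays to estimate the spread, gave 2 calls in place of 4 for moDC against monocytes, 1 in place of 2 for MHCIIhi against MHCIIlow macrophages, and 1 in place of 7 for CD11b DC against moDC. It gave 1 in place of 8 in monocytes at day 5, 4 in place of 7 in moDC at day 5, 3 in place of 6 in moDC at day 11 and 1 in place of 6 in CD11b DC at day 11. Quantile normalisation gave 7 in place of 11 in CD11b DC at day 5, and leaving out both arrays that stood apart gave 5 in place of 8 in monocytes at day 5; the cause was not tested.

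Leaving out 1 array at a time gave 4 to 8 calls in monocytes at day 5, 4 to 8 for CD11b DC against moDC, 2 to 6 in moDC at day 5 and 1 to 5 at day 11, 1 to 2 for MHCIIhi against MHCIIlow macrophages, 5 to 9 in MHCIIlow macrophages at day 5 and 3 to 5 at day 11, 1 to 4 in MHCIIhi macrophages at day 11, 4 to 8 in CD11b DC at day 5 and 8 to 14 for the difference of responses at day 11.

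Same-numbered arrays did not deviate together throughout (correlations of deviations with medians of 0.042 to 0.043 within a title letter, the lowest -0.106). For arrays with different numbers the medians were lower, from -0.024 to -0.020. Same-numbered arrays thus deviated together weakly in each letter. The main model did not take the numbers to pair samples, so its p-values leave out this weak likeness. With the replicate block, Langerhans cells had 15 calls at day 5 and 11 at day 11, CD11b DC 9 and 8, and untreated Langerhans against dermal cells 27. The other totals equalled those reported, and of the 7 calls in moDC at day 5 the number that rose was 2, against 3.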
